A study of Rattus norvegicus with 54 samples.

Results

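The genes described here are 10 members of the interleukin-1 (IL-1) and tumor necrosis factor (TNF) network, namely the IL-1 family ligands Il1b, Il18 and Il33, the antagonist Il1rn, the receptors Il1r1, Il1r2 and Il1rl1, and the cytokines Il6, Il11 and Tnf. They were found by symbol in every count table, and all 10 were among the 40319 genes listed. The hearts came from female athymic F344/NJcl-rnu/rnu rats, 8 weeks old at surgery, and the left ventricle was taken 1 week later. Sham rats had surgery without ligation, untreated MI rats had permanent ligation of the left anterior descending artery, and cell sheet-treated rats had the same ligation with a bi-level sheet of human endothelial progenitor cells and human smooth muscle cells laid over the infarct. Each group held 6 replicate numbers, each taken as 1 heart with an infarct zone (anterior wall), a border zone (lateral wall) and a remote zone (septum) library, so that 54 libraries were compared. The strain lacks a thymus and hence mature T cells, which all 3 groups share, and the counts are of rat genes, so that transcripts of the human cells were not measured as such.

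IL-1β, the product of Il1b, is made as a precursor by myeloid cells and is cut into its active form by caspase-1 in the inflammasome. It signals through the receptor encoded by Il1r1, while the product of Il1rn occupies that receptor without signalling and the product of Il1r2 binds IL-1 as a decoy. IL-33 is held in the nucleus of stromal cells and acts, once released, on the ST2 receptor encoded by Il1rl1, which also gives a soluble form that gene counts cannot separate from the membrane form. IL-6 and IL-11 signal through the shared receptor subunit gp130, and TNF through its own pair of receptors. In infarcted myocardium these cytokines are known for the recruitment of leukocytes, the activation of fibroblasts and the regulation of cardiomyocyte survival.

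The libraries held between 12699204 and 23397754 counts on genes, and 1 count corresponded to between 0.0386 and 0.0875 CPM (counts scaled to library size, with TMM factors), the unit of all levels given here. Levels of different genes were not compared, since the tables hold no gene lengths. Il6 and Il11 lay close to the floor, with at most 123 counts for Il6 and 42 for Il11 in any library. Il1r2 lay close to the floor in sham, with at most 24 counts in a library. A pair of hearts stood apart. In sham replicate 5 the summed level of 8 macrophage markers was between 1356 and 1902 CPM over the 3 zones, against 208.6 to 431.2 CPM in the other sham libraries, and that of 6 T and innate lymphoid cell markers was between 307.6 and 438.8 CPM, against 7.16 to 21.52 CPM, in a strain without mature T cells. In cell sheet replicate 1 the remote zone library had 22670 CPM of the 8 cardiomyocyte markers and 3509 CPM of the 5 myofibroblast markers, against 44270 to 63060 CPM and 142.9 to 455.5 CPM in the other remote zones of that group, and its border zone library had 187.8 CPM of cardiomyocyte markers, against 8829 to 38460 CPM. Values without these hearts are given beside the calls that depend on them. In this bulk tissue, fewer cells of a type and less RNA per cell cannot be told apart.

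**Figure D1:**
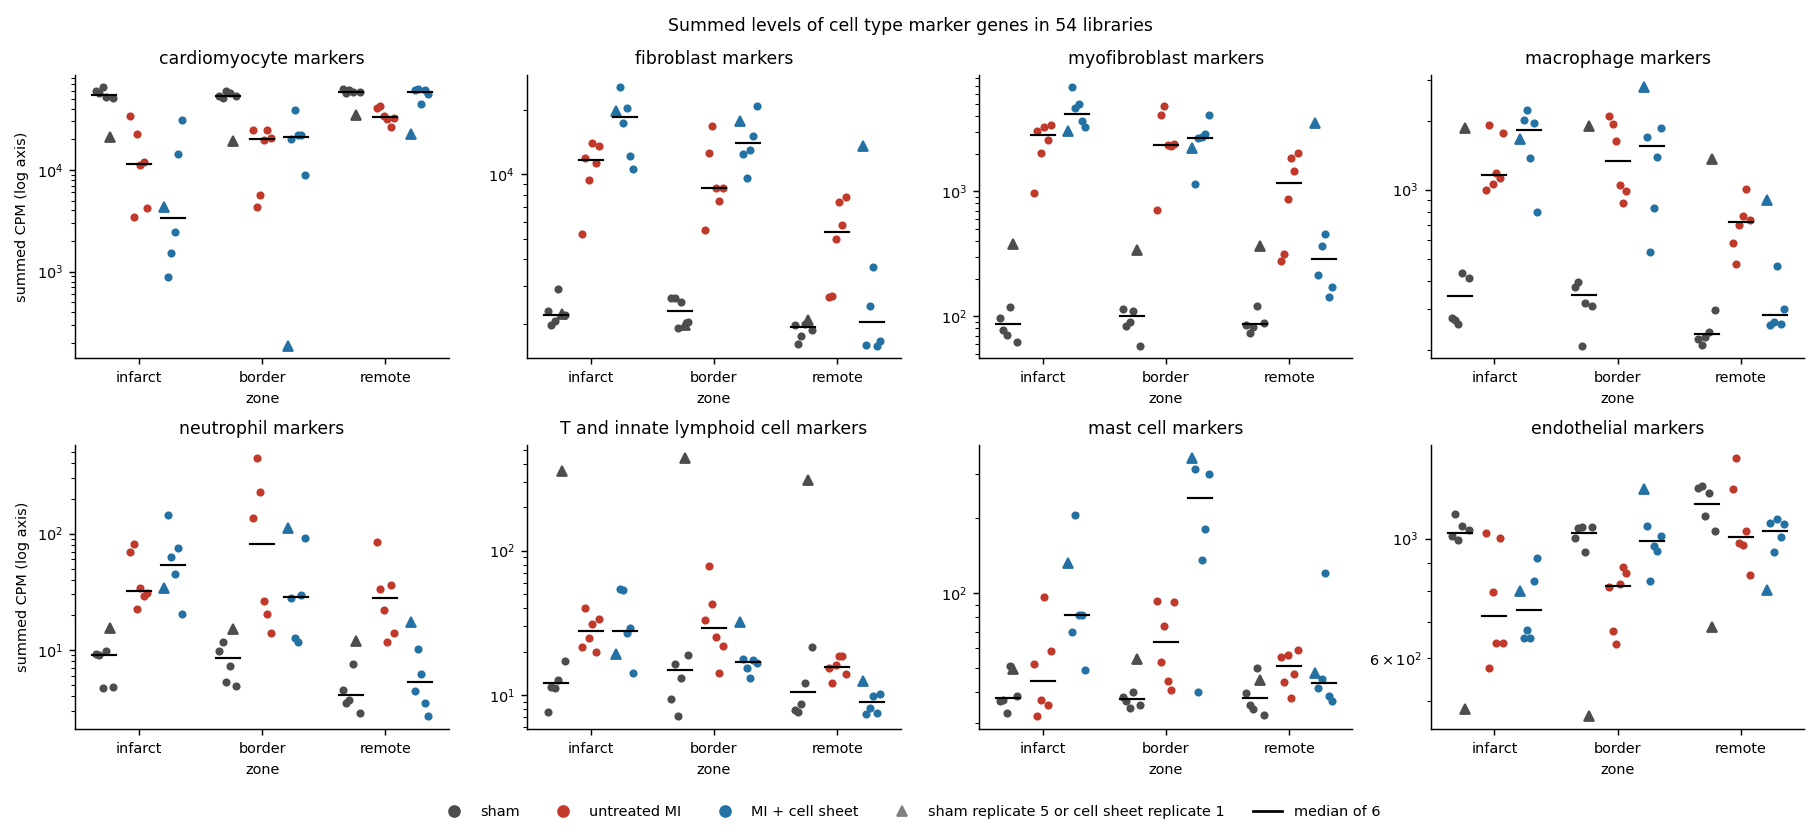
Summed CPM (log axis) of 8 lists of cell type markers in each of the 54 libraries by zone and treatment; points are libraries, bars the median of 6, triangles sham replicate 5 and cell sheet replicate 1. Sham replicate 5 lies far above the other sham hearts in T and innate lymphoid cell markers (307.6 to 438.8 CPM), and the neutrophil sum of the remote zone had a median of 27.8 CPM in untreated MI and of 5.33 CPM with the cell sheet.

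The sequences upstream of the members' start sites were read first, since several members moved together in the comparisons below. RefSeq gave a start site for 9 of the 10 members (GRCr8, an assembly other than the mRatBN7.2 used for the counts). The 250 bases before each start were searched on both strands for letters of NF-kB, AP-1 (TGANTCA), C/EBP (TTNNGCAA) and STAT factors (TTCNNNGAA) and for a TATA box (TATAAA). For NF-kB the letters were 3 G, 5 free bases and 2 C, a pattern looser than the kB consensus, so that a match need not fit that consensus. The windows of Il1b, of its antagonist Il1rn, of the receptors Il1r1 and Il1rl1 and of Tnf are shown 5′ to 3′ on the strand of the gene, as examples that encode a ligand, its antagonist, 2 receptors and a cytokine. The windows of the other members are not shown. Capitals mark the matches.
Il1b, chr3:137036582-137036831, minus strand: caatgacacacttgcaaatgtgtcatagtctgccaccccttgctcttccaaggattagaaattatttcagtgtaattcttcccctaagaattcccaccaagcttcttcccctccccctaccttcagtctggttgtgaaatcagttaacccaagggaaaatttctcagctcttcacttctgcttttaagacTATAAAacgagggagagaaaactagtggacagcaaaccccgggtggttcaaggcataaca
Il1rn, chr3:27520072-27520321, plus strand: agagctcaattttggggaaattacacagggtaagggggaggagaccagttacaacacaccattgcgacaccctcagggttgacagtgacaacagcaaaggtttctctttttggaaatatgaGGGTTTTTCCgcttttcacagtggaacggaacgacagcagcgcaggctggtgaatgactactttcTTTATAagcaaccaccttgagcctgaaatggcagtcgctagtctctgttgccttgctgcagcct
Il1r1, chr9:50034133-50034382, plus strand: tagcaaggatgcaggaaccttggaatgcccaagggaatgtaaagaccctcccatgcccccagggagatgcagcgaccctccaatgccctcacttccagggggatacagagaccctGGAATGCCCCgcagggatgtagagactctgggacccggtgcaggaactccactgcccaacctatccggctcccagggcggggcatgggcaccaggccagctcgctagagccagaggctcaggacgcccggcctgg
Il1rl1, chr9:50203388-50203637, plus strand: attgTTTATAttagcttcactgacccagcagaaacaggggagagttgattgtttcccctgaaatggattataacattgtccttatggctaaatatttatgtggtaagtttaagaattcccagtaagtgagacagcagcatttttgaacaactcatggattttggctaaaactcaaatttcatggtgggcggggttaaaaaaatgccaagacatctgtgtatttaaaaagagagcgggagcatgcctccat
Tnf, chr20:3626435-3626684, plus strand: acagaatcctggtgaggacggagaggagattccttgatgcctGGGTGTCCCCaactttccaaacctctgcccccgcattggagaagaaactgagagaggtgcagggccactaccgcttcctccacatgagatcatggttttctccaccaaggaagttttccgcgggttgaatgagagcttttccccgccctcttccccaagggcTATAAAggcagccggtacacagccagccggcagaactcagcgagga
The NF-kB letters lay at positions -129 to -120 of Il1rn, -135 to -126 of Il1r1 and -208 to -199 of Tnf, counted back from the start site. A TATA box match lay at -60 to -55 of Il1b and at -46 to -41 of Tnf, and on the opposite strand at -64 to -59 of Il1rn and -246 to -241 of Il1rl1. Among all 33469 windows of this length, 42.3% held the NF-kB letters, 6.34% those of AP-1, 9.22% those of C/EBP, 7.67% those of STAT factors and 12.9% the TATA box, so that a match of the NF-kB letters is common. The NF-kB letters were also in the windows of Il18 and Il6, those of C/EBP in Il6 and at the second start of Il33, and those of AP-1 in Il11. A match is a description of these letters and was not tested as a binding site.

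Untreated MI was compared with sham in each zone to ask how the network stood 1 week after infarction. In the infarct zone Il33, Il1r1, Il1r2 and Il1rl1 were higher in untreated MI, 4 of the 8 members that passed edgeR's filter on low counts, beside 49.9% of all genes called in either direction and 22.7% called higher (edgeR's quasi-likelihood test, adjusted p under 0.05). The same 4 symbols were called higher among 8 tested in the border zone, beside 41.7% of all genes, of which 18.4% were higher. Remote zones had Il33, Il1r1 and Il1r2 called higher among 8 tested, beside 25.8% of all genes and 11.7% higher. No member was called lower in any of the 3 zones. The median log2 fold change over the members tested was 0.89 in the infarct, 1.63 in the border and 0.94 in the remote zone, while that over all genes was -0.02, -0.02 and -0.04.

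**Figure D2:**
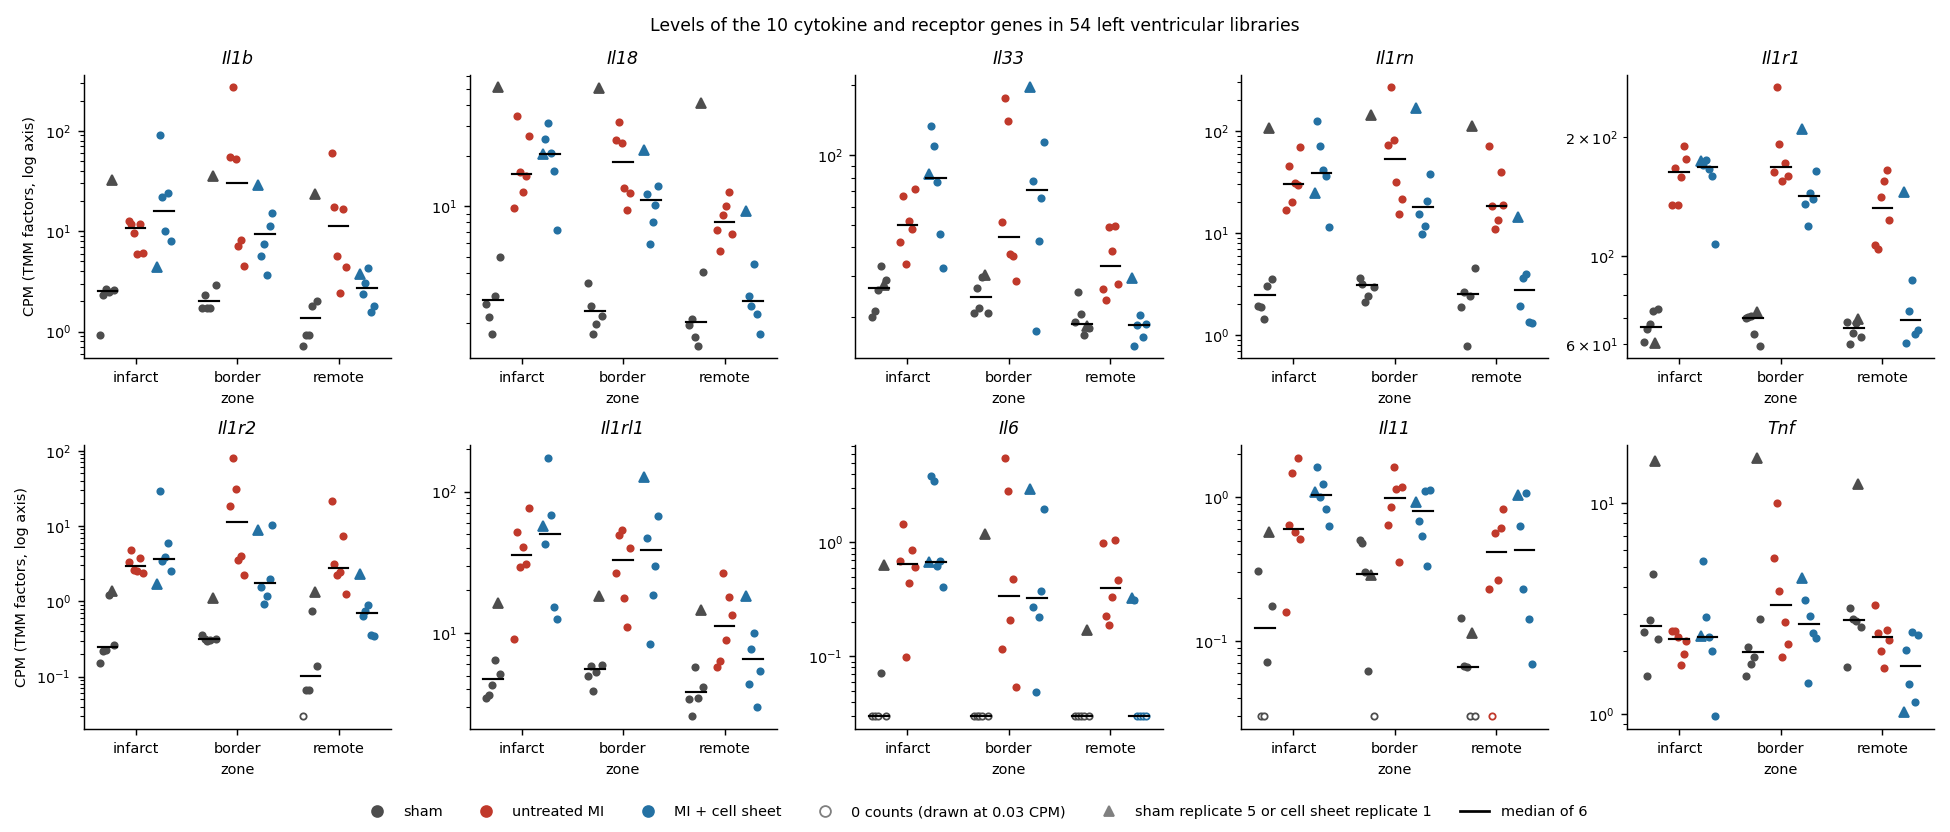
CPM (log axis) of each of the 10 genes in the 54 libraries, by zone on the x axis and by treatment in color; points are libraries, bars the median of 6, triangles sham replicate 5 and cell sheet replicate 1, and open points libraries with 0 counts, drawn at 0.03 CPM. Il1r1 shows no overlap between sham (59.49 to 73.73 CPM over the zones) and untreated MI (104.4 to 266.4 CPM), and the highest Il18 level in every zone is that of sham replicate 5.

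Il1r1, the signalling receptor of IL-1, gave the tightest separation. Its level in the infarct zone was 60.2, 66.3 and 73.7 CPM (lowest, median and highest of 6) in sham and 134.2, 162.9 and 190.0 CPM in untreated MI. The border zone values were 59.5, 69.95 and 72.4 CPM in sham and 154.9, 167.4 and 266.4 CPM in untreated MI, and in the remote zone 59.9, 65.8 and 69.3 CPM against 104.4, 132.2 and 164.5 CPM. The groups did not overlap in any zone, which held for 14.1%, 11.7% and 8.3% of all genes in the infarct, border and remote zone. The log2 fold change was 1.25 ± 0.10 (SE, adjusted p = 3.6e-05) in the infarct zone, 1.45 ± 0.13 (adjusted p = 8.05e-05) in the border zone and 1.02 ± 0.12 (adjusted p = 0.000583) in the remote zone by edgeR. Fibroblast markers moved with it: their sum was between 1980 and 2913 CPM in sham and between 5272 and 14060 CPM in untreated MI infarct zones, and their part in the result was not tested.

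Il1r2, the decoy receptor, lay near the floor in sham. It had 3 counts or fewer in 4 of 6 infarct and 4 of 6 remote libraries, and a median of 4.5 in border libraries. Il1r2 passed the filter through the untreated MI libraries, so it adds little to the counts of members called against sham. The sizes of its log2 fold changes are given but not read further. Its border zone level was 0.302, 0.317 and 1.10 CPM (lowest, median and highest) in sham and 2.21, 11.2 and 80.3 CPM in untreated MI, without overlap, for a log2 fold change of 5.59 ± 0.98 (SE, adjusted p = 0.00182). In the infarct zone it was 0.154, 0.244 and 1.37 CPM in sham and 2.42, 2.98 and 4.84 CPM in untreated MI, also without overlap (2.43 ± 0.52, adjusted p = 0.00323). Remote zone sham libraries lay between 0 and 1.31 CPM with a median of 0.103 CPM and the untreated MI libraries between 1.24 and 21.8 CPM with a median of 2.78 CPM, so that the groups overlapped slightly (3.95 ± 0.94, adjusted p = 0.00945, edgeR). The summed neutrophil markers, a list of 7 genes, were also higher: their median was 8.52 CPM in sham and 81.5 CPM in untreated MI border zones, with Mpo at 0 in all 6 sham border libraries, and their part in the Il1r2 result was not tested.

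Il33 and its receptor Il1rl1 were the other called pair. Il33 was at 20.0, 26.8 and 33.1 CPM in sham infarct zones and at 34.05, 50.2 and 71.4 CPM in untreated MI (lowest, median and highest), without overlap (log2 fold change 0.99 ± 0.18, adjusted p = 0.00161). Untreated MI border zones ranged from 28.8 to 176.6 CPM around a median of 44.4 CPM, with replicates 2 and 3 far above the others, against 20.8 to 30.6 CPM in sham (1.64 ± 0.44, adjusted p = 0.0123). Il1rl1 was at 3.47, 4.73 and 16.4 CPM in sham infarct zones and at 9.10, 35.6 and 76.9 CPM in untreated MI (2.56 ± 0.51, adjusted p = 0.00234). The border zone values were 3.92, 5.58 and 18.2 CPM in sham and 10.95, 33.1 and 53.4 CPM in untreated MI (2.15 ± 0.46, adjusted p = 0.00498). The overlap in both zones came from sham replicate 5, which had the highest sham value. In the remote zone Il33 was called higher (0.86 ± 0.20, adjusted p = 0.00805), while the change of Il1rl1 was 1.21 ± 0.48 on the log2 scale and missed the threshold (adjusted p = 0.0801, edgeR). Without sham replicate 5 it was 1.76 ± 0.38 and was called (adjusted p = 0.00162), and DESeq2 called it with all libraries (1.22, adjusted p = 0.0334).

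For the ligands Il1b and Il18 and for Il1rn the outcome depended on sham replicate 5. Il1b was at 32.3 CPM in the infarct zone of that heart and between 0.925 and 2.64 CPM in the other 5 sham hearts, while untreated MI lay at 5.97, 10.7 and 12.7 CPM (lowest, median and highest). With all 12 libraries the log2 fold change was 0.38 ± 0.75 (adjusted p = 0.69), and without sham replicate 5 it was 2.12 ± 0.31 (adjusted p = 0.00014). Il18 was at 51.05 CPM in sham replicate 5, between 1.73 and 4.99 CPM in the other sham hearts and between 9.74 and 34.5 CPM in untreated MI. Its log2 fold change was 0.75 ± 0.82 (adjusted p = 0.459) with and 2.70 ± 0.38 (adjusted p = 0.000116) without that heart. Il1rn was at 107.9 CPM in sham replicate 5, between 1.43 and 3.59 CPM in the others and between 16.8 and 70.5 CPM in untreated MI. Its log2 fold change was 0.80 ± 1.04 (adjusted p = 0.537) with and 3.90 ± 0.41 (adjusted p = 2.73e-05) without it, all by edgeR.

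The other zones gave the same split for these 3 genes. Without sham replicate 5, the log2 fold changes in the border zone were 4.99 ± 1.13 for Il1b, 3.01 ± 0.35 for Il18 and 4.84 ± 0.78 for Il1rn, and in the remote zone 3.78 ± 0.77, 1.90 ± 0.29 and 3.55 ± 0.54, and each was past the threshold. With it, none of the 6 values was past the threshold by edgeR, though DESeq2 called Il1b in the border zone (3.07, adjusted p = 0.0131) and so did edgeR without untreated MI replicate 4, 5 or 6. The log2 fold change of Il18 in the remote zone was then -0.07 ± 0.78. In total 8 of 9 members tested were called higher in the infarct zone without sham replicate 5, 9 of 9 in the border zone and 7 of 8 in the remote zone. These counts stand beside 64.8%, 60.8% and 46.5% of all genes called, of which 34.1%, 31.9% and 23.7% of all genes tested were higher, so that the whole comparison moved with this heart.

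**Figure D3:**
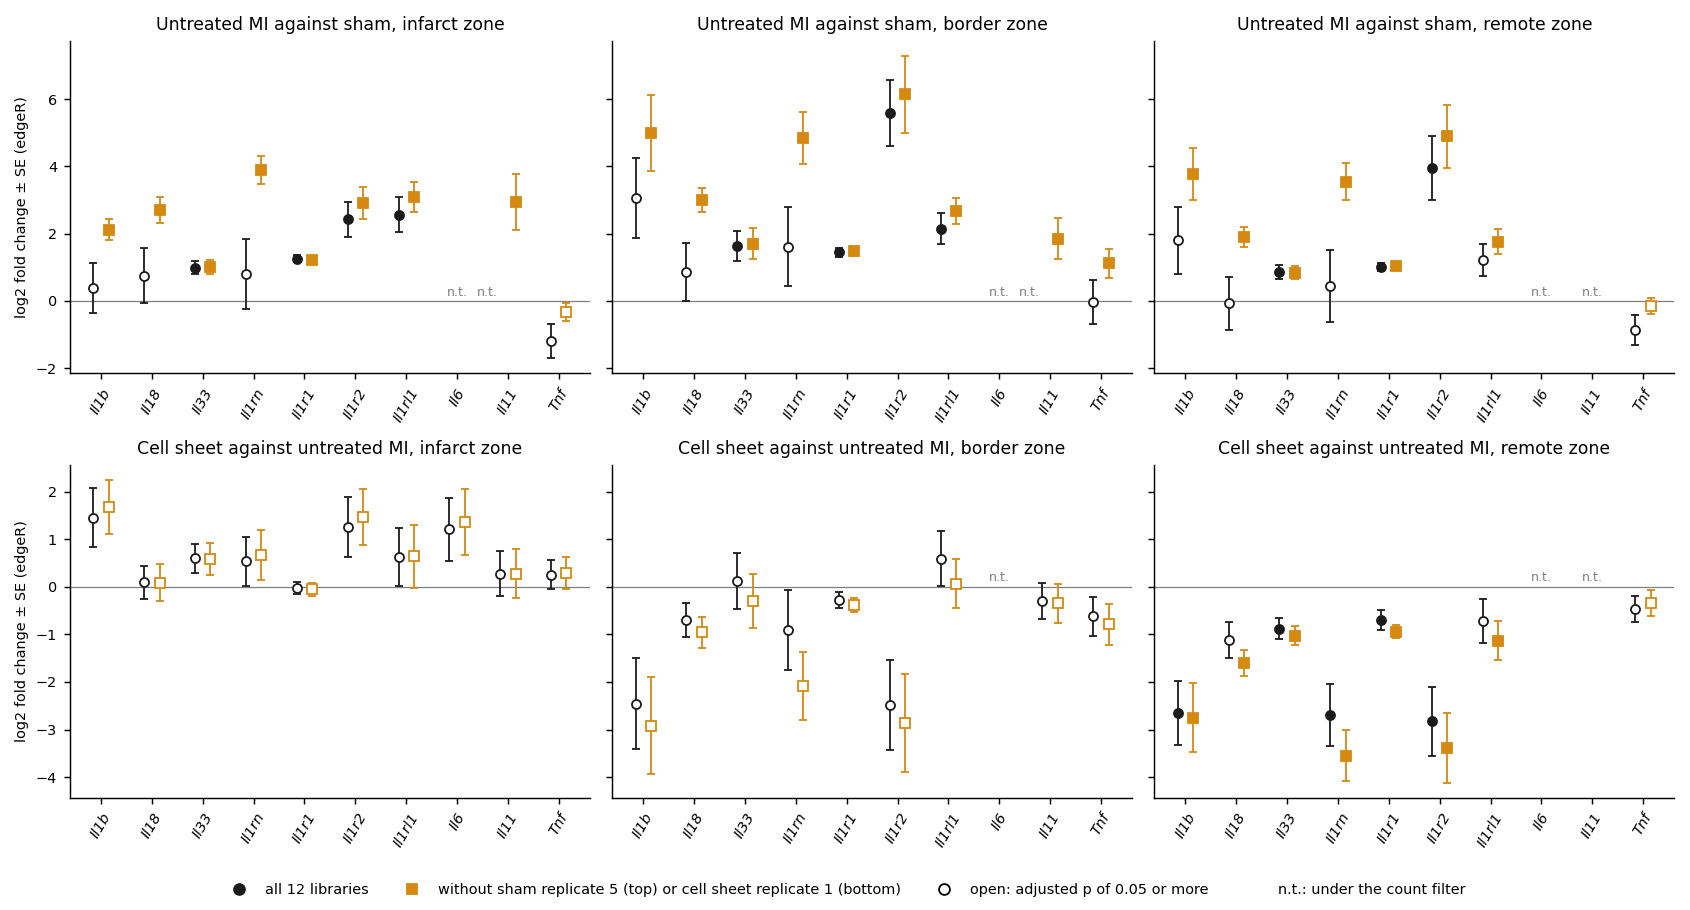
log2 fold change ± SE (edgeR) of each member, for untreated MI against sham (top) and cell sheet against untreated MI (bottom) in the 3 zones; circles use all 12 libraries, squares leave out sham replicate 5 (top) or cell sheet replicate 1 (bottom), and filled symbols have an adjusted p under 0.05. Il1rn in the infarct zone moved from 0.80 to 3.90 without sham replicate 5, while Il1r1 stayed at 1.25 and 1.23.

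Tnf was not called in any zone by edgeR with all libraries. Its level in the infarct zone was 1.71, 2.28 and 2.49 CPM in untreated MI, and 15.7 CPM in sham replicate 5 against 1.53 to 4.63 CPM in the other sham hearts (log2 fold change -1.19 ± 0.51, adjusted p = 0.0716). DESeq2 called it lower there (-1.19, adjusted p = 0.0355), and so did edgeR without sham replicate 2 (adjusted p = 0.0407). Untreated MI border zones lay at 1.87, 3.28 and 9.96 CPM and the 5 other sham hearts at 1.52 to 2.84 CPM. There the log2 fold change was -0.03 ± 0.66 (adjusted p = 0.977) with all libraries and 1.12 ± 0.43 (adjusted p = 0.0371) without sham replicate 5. In the infarct and remote zones Tnf remained uncalled without that heart, at -0.33 ± 0.26 and -0.15 ± 0.25 (adjusted p = 0.287 and 0.639, edgeR).

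Il6 and Il11, the gp130 cytokines, did not pass the count filter in untreated MI against sham when all libraries were used. Il6 had 0 counts in 4 of 6 sham infarct libraries and in 5 of 6 sham border and 5 of 6 sham remote libraries, and at least 1 count in every untreated MI library. The highest Il6 level was 5.52 CPM, in the border zone of untreated MI replicate 2. Remote zone libraries of untreated MI lay between 0.188 and 1.04 CPM and the sham libraries between 0 and 0.171 CPM. In counts these groups met, since the lowest untreated MI and the highest sham value were both 3 counts, the floor. Il11 lay between 0 and 0.572 CPM in sham and between 0.159 and 1.88 CPM in untreated MI infarct zones. Without sham replicate 5 it passed the filter through the untreated MI libraries and is among the members counted above in the infarct and border zones. A gene that passes through the group in which it is high adds little to such a count, so its fold change is not read here.

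Cell sheet-treated hearts were compared with the same sham libraries, so these values are not independent of those above. In the infarct zone 6 of 10 members tested were called higher, beside 57.9% of all genes and 28.6% higher, namely Il33, Il1r1, Il1r2, Il1rl1, Il6 and Il11. Il6, Il11 and Il1r2 passed the filter there through the cell sheet libraries, so that they add little to this count. Their fold changes are not read. Il6 lay at 0.405, 0.676 and 3.80 CPM in cell sheet-treated infarct zones, and in sham at 0.0713 CPM in replicate 4, at 0.630 CPM in replicate 5 and at 0 in the other 4. Il11 lay at 0.636, 1.04 and 1.62 CPM, and at 0.572 CPM in the highest sham library. The lowest cell sheet-treated library held 11 counts of Il11 and the highest sham library 10. Border zones had Il33, Il1r1, Il1r2 and Il1rl1 called higher, 4 of 8 tested beside 43.6% of all genes and 20.4% higher. Il1r2 again passed the filter through the cell sheet libraries. In the remote zone 0 of 7 members tested were called, beside 0.0066% of all genes, and 0 were called by DESeq2. At an unadjusted p under 0.05 there was 1 of 7, beside 1520 of 15157 genes (edgeR). The Il1r1 level there was 60.3, 68.8 and 144.9 CPM with the cell sheet and 59.9, 65.8 and 69.3 CPM in sham (0.32 ± 0.20, adjusted p = 0.641), with the highest value in cell sheet replicate 1. Without sham replicate 5 the counts were 9 of 10 in the infarct zone, 8 of 9 in the border zone and 0 of 7 in the remote zone, beside 70%, 61.6% and 0.111% of all genes. The log2 fold changes of Il1b, Il18 and Il1rn then went from 1.94, 0.96 and 1.47 to 3.57, 2.78 and 4.43 in the infarct zone and from 0.63, 0.17 and 0.72 to 2.49, 2.27 and 3.90 in the border zone, uncalled before and called after. In the remote zone they went from -0.87, -1.20 and -2.27 to 1.12, 0.79 and 0.86, a change of direction between values that were not called either time by edgeR.

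The direct comparison of cell sheet-treated with untreated MI hearts asked whether the sheet was followed by a different level of these genes. In the remote zone 5 of 8 members tested were lower with the cell sheet, namely Il1b, Il33, Il1rn, Il1r1 and Il1r2, beside 17.1% of all genes called and 6.79% called lower. None was higher. Il1r2 passed the filter there through the untreated MI libraries, with 5 to 42 counts in the cell sheet-treated ones, so it adds little to this count. The median log2 fold change over the 8 members, Il1r2 among them, was -0.998, against 0.00596 over all genes tested. In the border zone 0 of 9 members tested were called, beside 18% of all genes, and in the infarct zone 0 of 10, beside 0% of all genes. At an unadjusted p under 0.05 there were 2 members in the border zone, Il1b and Il1r2, and 1 in the infarct zone, Il1b. These stand beside 5279 of 16272 genes in the border and 1341 of 16196 genes in the infarct zone (edgeR). DESeq2 called 2 members in the border zone, again Il1b and Il1r2, beside 24.2% of all genes, and 0 in the infarct zone. Without cell sheet replicate 1 the counts stayed at 0 of 9 in the border zone, beside 18.8% of all genes, and 0 of 10 in the infarct zone, beside 0%.

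Il1rn was called in every fit that left out 1 heart. Its remote zone level was 11.0, 18.6 and 71.7 CPM (lowest, median and highest) in untreated MI and 1.32, 2.80 and 14.3 CPM with the cell sheet, and the highest cell sheet value was that of replicate 1, the only one inside the untreated MI range. The log2 fold change was -2.69 ± 0.65 (adjusted p = 0.0177), and -3.55 ± 0.53 (adjusted p = 0.000378) without cell sheet replicate 1. Over those 12 fits its log2 fold change ran from -3.55 to -2.20. Il1b was at 2.45, 11.2 and 60.2 CPM in untreated MI and at 1.57, 2.73 and 4.35 CPM with the cell sheet (-2.66 ± 0.68, adjusted p = 0.0219). Untreated MI replicate 1 carried the highest Il1b, Il1rn and Il1r2 of the remote zone, at 60.2, 71.7 and 21.8 CPM.

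Il1r2 was at 1.24, 2.78 and 21.8 CPM in untreated MI remote zones and at 0.348, 0.691 and 2.28 CPM with the cell sheet, the highest again in replicate 1 (-2.83 ± 0.72, adjusted p = 0.0224). Il33 was at 23.8, 33.3 and 49.6 CPM against 15.1, 18.6 and 29.5 CPM (-0.88 ± 0.22, adjusted p = 0.0211). Il1r1 was at 104.4, 132.2 and 164.5 CPM against 60.3, 68.8 and 144.9 CPM (-0.70 ± 0.22, adjusted p = 0.0409), a call that was lost in 9 of the 12 fits that left out 1 heart, with adjusted p of at most 0.0949 by edgeR. Apart from cell sheet replicate 1, all cell sheet values of Il33 and Il1r1 lay below those of untreated MI. Il18, at -1.12 ± 0.38, missed the threshold (adjusted p = 0.0565, edgeR), and its level was 5.39, 8.07 and 12.2 CPM in untreated MI and 1.74, 2.72 and 9.39 CPM with the cell sheet. For Il1rl1 the value was -0.71 ± 0.46 and for Tnf -0.46 ± 0.27, with adjusted p of 0.286 and 0.24. Il6 and Il11 did not pass the filter: Il6 had 0 counts in 4 of 6 cell sheet-treated remote libraries and in 0 of 6 untreated MI ones.

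The number of members called in the remote zone varied with the hearts included. Without cell sheet replicate 1 it was 7 of 8, with Il18 and Il1rl1 added, beside 41.6% of all genes called and 20.8% lower. Il1r2, which adds little, is again among the 7. Without cell sheet replicate 2 and without cell sheet replicate 5 it was 1, Il1rn, beside 7.04% and 7.51% of all genes, and without cell sheet replicate 3 or untreated MI replicate 5 it was 3, beside 7.89% and 7.06%. With all 54 libraries in 1 fit it was 2, Il1r1 and Il1r2, beside 14.6%, and Il1rn, Il1b and Il33 were then not called (adjusted p = 0.108, 0.0623 and 0.103, edgeR). Cell type markers were summed in the same comparison, in which 6.79% of all genes were lower and 10.3% higher. The neutrophil sum was 11.8, 27.8 and 84.7 CPM in untreated MI and 2.71, 5.33 and 17.3 CPM with the cell sheet, with 2 of 4 markers tested lower. The macrophage sum was between 472.8 and 1010 CPM in untreated MI and between 256.2 and 899.1 CPM with the cell sheet, with 1 of 8 markers lower, and the fibroblast sum between 2673 and 7848 CPM and between 1584 and 13630 CPM, with 1 of 5 lower. The cardiomyocyte sum was between 26630 and 42130 CPM and between 22670 and 63060 CPM, with 1 of 8 markers higher. The part of these cell types in the members' difference was not tested.

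In the border zone the largest differences were those of Il1b and Il1r2. Il1b was at 4.48, 30.5 and 270.0 CPM in untreated MI and at 3.66, 9.40 and 28.8 CPM with the cell sheet (-2.45 ± 0.95, adjusted p = 0.0953), and Il1r2 at 2.21, 11.2 and 80.3 CPM against 0.922, 1.77 and 10.2 CPM (-2.48 ± 0.95, adjusted p = 0.0918). The spread among untreated MI border zones was wide, with Il1b between 52.7 and 270.0 CPM in replicates 1, 2 and 3 and between 4.48 and 8.27 CPM in replicates 4, 5 and 6. Il1rl1 was at 10.95, 33.1 and 53.4 CPM against 8.35, 38.4 and 127.6 CPM (0.59 ± 0.58, adjusted p = 0.515). In the infarct zone the largest value was that of Il1b, at 5.97, 10.7 and 12.7 CPM in untreated MI and 4.36, 16.0 and 90.8 CPM with the cell sheet (1.45 ± 0.62, adjusted p = 0.572), where replicate 2 stood above the rest. Il1r1 was nearly level there, at 162.9 and 167.7 CPM in the median (-0.02 ± 0.13, adjusted p = 0.974, edgeR).

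Whether the cell sheet acted differently in the 3 zones was asked with an interaction term, in fits that blocked on the heart. For the infarct against the remote zone the difference of effects was 3.20 ± 0.89 for Il1rn, 2.75 ± 0.85 for Il1b, 2.97 ± 0.94 for Il1r2, 1.35 ± 0.42 for Il33 and 0.74 ± 0.21 for Il1r1 on the log2 scale, with adjusted p between 0.107 and 0.121 by edgeR. None of the 10 members passed the threshold, beside 0% of all genes. At an unadjusted p under 0.05 there were 7 of 10, beside 4190 of 16902 genes (edgeR). When cell sheet replicate 1 was left out, 6 of 10 members passed the threshold, beside 11.8% of all genes. With all hearts DESeq2 called 6 of the 8 members that had an adjusted p, beside 12.9% of such genes. The first 6 included Il6 and Il1r2, and the DESeq2 count included Il1r2. In cell sheet-treated remote zones Il6 had 0 counts in 4 of 6 libraries and Il1r2 had 5 to 42 counts. Both passed the filter through other groups, so they add little to these counts. No member passed for the border against the infarct zone or for the border against the remote zone, with 0% of all genes called in both. By DESeq2 0 members were called as well. At an unadjusted p under 0.05 there were 0 and 1 members by edgeR, beside 2012 of 17275 and 3430 of 16784 genes. The effect of MI differed between the infarct and the remote zone for Il1rl1 alone among 9 members tested, at 1.31 ± 0.47 (adjusted p = 0.0475), beside 28.9% of all genes, and this call was lost in 9 of 12 fits that left out 1 heart.

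The zones of the same hearts were then compared. In cell sheet-treated hearts 8 of 9 members tested were higher in the infarct than in the remote zone, beside 62.8% of all genes called and 31.5% called higher, and 7 of 9 were higher in the border than in the remote zone, beside 56.4% and 29.2%. Il1r2 passed the filter through the infarct or border libraries, and Il11 through the infarct libraries in the first comparison, so they add little to these counts. Over the fits that left out 1 heart these counts were 6 to 9 and 6 to 7. The 9 came without cell sheet replicate 6 and held Il6, which passed in the same way. Among the members that passed the filter Il1rn had the largest difference, at 11.6, 38.8 and 126.8 CPM in infarct zones against 1.32, 2.80 and 14.3 CPM in remote zones, with a log2 difference of 3.71 ± 0.69 (adjusted p = 0.00419), and of 3.00 ± 0.47 (adjusted p = 0.00308) between border and remote zones. Il33 differed by 1.88 ± 0.30 and 1.82 ± 0.38 (adjusted p = 0.00332 and 0.00659), and Il1rl1 by 2.61 ± 0.43 and 2.41 ± 0.54 (adjusted p = 0.00339 and 0.00819). Tnf was the tested member not called in either, at 0.53 ± 0.38 and 0.70 ± 0.31, and Il11 was called in the infarct but not in the border zone (1.25 ± 0.45 and 0.74 ± 0.48, adjusted p = 0.0444 and 0.22, edgeR). The call of Il11 is not read further, since the remote libraries held 1 to 19 counts of it. In untreated MI hearts 2 of 10 members were higher in the infarct than in the remote zone, beside 36.4% of all genes and 18.3% called higher, namely Il18 (1.04 ± 0.33, adjusted p = 0.041) and Il1rl1 (1.53 ± 0.39, adjusted p = 0.0195, edgeR). The call of Il18 was lost in 5 and that of Il1rl1 in 2 of the 6 fits that left out 1 heart. Between border and remote zones of untreated MI 0 of 9 were called, beside 0% of all genes. Without the block for the heart 2 of 9 were called, beside 21.7%. With the block, 3 of 9 had an unadjusted p under 0.05, beside 5943 of 15738 genes (edgeR). The difference between the gradients of treated and untreated hearts is the interaction given above, which no member passed with all hearts by edgeR. DESeq2 called 6 of 8 members in it for infarct against remote zones, beside 12.9% of genes with an adjusted p.

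**Figure D4:**
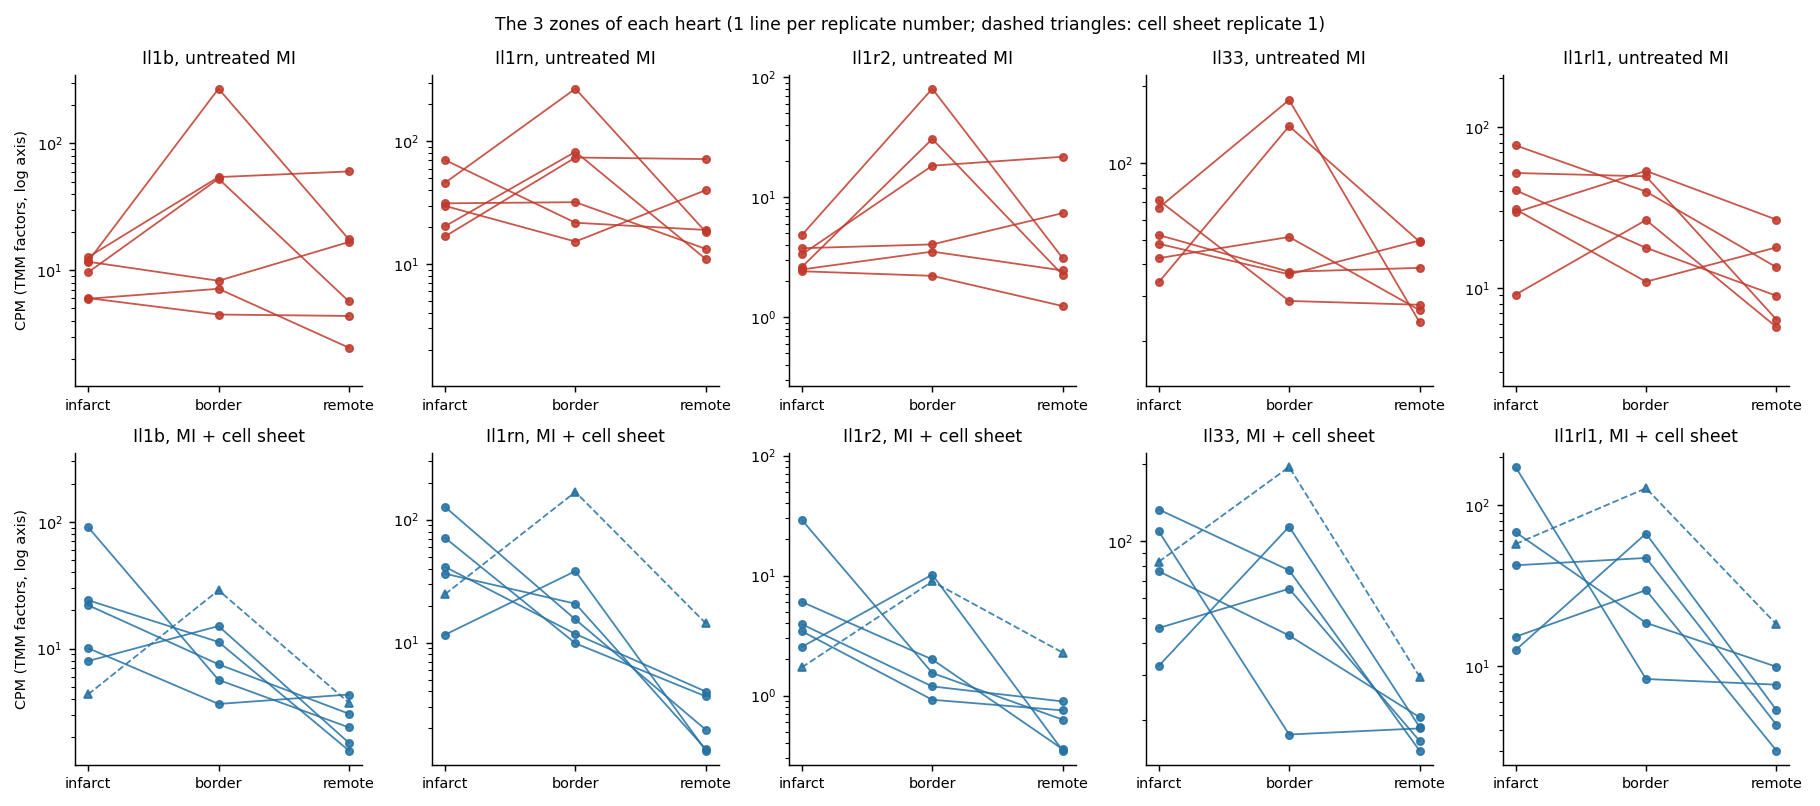
CPM (log axis) of Il1b, Il1rn, Il1r2, Il33 and Il1rl1 in the infarct, border and remote zone of each heart, with 1 line per heart; untreated MI is at the top, cell sheet-treated MI at the bottom, and cell sheet replicate 1 is dashed with triangles. In cell sheet-treated hearts the remote zone Il1rn lies between 1.32 and 14.3 CPM, while in untreated MI it lies between 11.0 and 71.7 CPM.

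The balance between an IL-1 ligand and its antagonist, and between the decoy and the signalling receptor, was measured as a log2 ratio of counts within each library, with 0.5 added to each count. None of the 18 ratio tests passed an adjusted p of 0.05 (exact permutation test, 2-sided, for which 0.00216 is the smallest p possible). The lowest was Il1r2 to Il1r1 in border zones of untreated MI against sham, with means of -4.09 ± 1.81 and -7.29 ± 0.64 (SD, n = 6 each, difference 3.20, exact permutation p = 0.00433, adjusted p = 0.0779). In the remote zone the same ratio was -5.06 ± 1.55 in untreated MI and -6.72 ± 0.55 with the cell sheet (difference -1.67, exact permutation p = 0.0238, adjusted p = 0.0857, n = 6). The Il1rn to Il1b ratio was 1.79 ± 1.10 in untreated MI and 0.39 ± 0.93 in sham infarct zones (difference 1.40, exact permutation p = 0.0346, adjusted p = 0.089, n = 6). For remote zones it was 1.18 ± 0.96 in untreated MI and 0.19 ± 0.88 with the cell sheet (difference -0.99, exact permutation p = 0.0974, adjusted p = 0.175, n = 6).

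The partners of the members were followed in 4 lists, whose counts are to be read against all genes, of which 22.7% were higher and 27.2% lower in the infarct zone of untreated MI. In the infarct zone of untreated MI against sham, 5 of 17 tested genes of the IL-1 family and its signalling were higher and 0 lower, from Il1rl2, an IL-36 receptor subunit (4.70 ± 0.63, adjusted p = 0.000254), to Irak3, an inhibitor of IL-1 receptor signalling (0.95 ± 0.15, adjusted p = 0.000758). Of 18 genes around gp130, 8 were higher and 1 lower, with Ebi3, a subunit of heterodimeric cytokines, at 3.11 ± 0.55 (adjusted p = 0.00132) and the LIF receptor Lifr at -0.81 ± 0.20 (adjusted p = 0.00615). Of 13 TNF pathway genes 4 were higher, led by the receptor Tnfrsf1a (1.34 ± 0.19, adjusted p = 0.000348), and 2 lower, with the adaptor Traf2 at -0.40 ± 0.15 (adjusted p = 0.0418). Of 17 NF-kB factors and target genes 4 were higher and 2 lower, from the neutrophil chemokine Cxcl2 (2.42 ± 0.73, adjusted p = 0.0162) to the mitochondrial superoxide dismutase Sod2 (-1.24 ± 0.24, adjusted p = 0.00217). Without sham replicate 5 the higher counts were 14 of 18, 12 of 18, 8 of 13 and 13 of 17, and the lower ones 0, 3, 1 and 2, beside 34.1% and 30.7% of all genes.

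With the cell sheet, in the remote zone, where 6.79% of all genes were lower, 3 of 17 IL-1 family genes were lower than in untreated MI, from Il1a, the other IL-1 ligand (-2.52 ± 0.69, adjusted p = 0.0283), to Casp1, which encodes the protease that matures IL-1β (-0.63 ± 0.11, adjusted p = 0.00668). Of the gp130 list 2 of 18 were lower, with Ebi3 at -1.96 ± 0.56 (adjusted p = 0.0329), and 1 was higher, the transcription factor Stat3 (0.40 ± 0.09, adjusted p = 0.016). Of 13 TNF pathway genes 4 were lower, from the adaptor Tradd (-0.75 ± 0.21, adjusted p = 0.028) to the caspase-8 regulator Cflar (-0.30 ± 0.08, adjusted p = 0.0269), and of 16 NF-kB genes 1 was lower, the endothelial adhesion molecule Sele (-0.92 ± 0.21, adjusted p = 0.0153). In the border zone, where 9.48% of all genes were lower, 3 of 18 IL-1 family genes were lower, from Il1a (-3.44 ± 1.05, adjusted p = 0.039) to the inflammasome adaptor Pycard (-0.55 ± 0.17, adjusted p = 0.0379). Cxcl2 was the 1 lower gene of the 17 NF-kB genes there (-4.24 ± 1.36, adjusted p = 0.049), none of the 13 TNF pathway genes was called, and of the gp130 list Stat3 was higher (0.36 ± 0.09, adjusted p = 0.0169, edgeR). In the infarct zone 0 genes of the 4 lists were called, beside 0% of all genes.

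Over the 54 libraries the genes most like each member in log2 CPM differed between the members. Il1b was most like Clec4e, a myeloid lectin receptor (Pearson's r = 0.932), and Ccl3, a chemokine (0.929), and Il1r2 like Socs3 (0.914), Clec4e (0.913) and Csf3r, the G-CSF receptor (0.896). Il1rn was most like Scimp (0.967). Il1r1 was most like Lox, which crosslinks collagen (0.956), and Il11 like Cthrc1, a product of activated fibroblasts (0.827). Il33 was most like Nxn (0.918), Il1rl1 like Man2b1 (0.950), Il6 like Socs3 (0.907), and Tnf like Irf1, an interferon-induced transcription factor (0.862). Among the members themselves, Il1rn went with Il18 (0.947) and Il1b (0.903), Il33 with Il1rl1 (0.864), and Tnf and Il11 had the weakest relation (0.00547). Within the groups these values were 0.926, 0.853, 0.7 and 0.171, and the weakest pair was Il1b with Il11 (0.12). Both sets of values include sham replicate 5, which lay far above the other sham hearts in Il1b, Il18 and Il1rn. Its part in them was not tested. These correlations run over libraries that share hearts, zones and treatments, so they describe the pattern and were not tested.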

How the data were processed

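Poly(A) RNA of 54 left ventricular pieces was sequenced as paired-end reads on an Illumina NovaSeq. The authors aligned the reads with STAR to mRatBN7.2 and deposited 1 table of raw counts per library. Neither the counting tool nor its strand option is given in the sources used here, so reads of a gene and of an antisense partner cannot be told apart. The summary lines of each table, which name no gene, held 17.0% to 42.8% of the counts and were left out. The submitters' processing notes name DESeq2. The labels call the libraries technical replicates, while the study describes 5 to 6 animals per group, so each library was taken as 1 heart and zone, and a group may hold fewer animals than numbers; if the libraries were technical, p-values measure only that spread. No pair of libraries of a group held the same counts.

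The members and gene lists were chosen with earlier results of these data known. Each comparison was fitted on its own libraries with edgeR 4.0.16 in R 4.3.3 (TMM factors, filterByExpr, quasi-likelihood F test, Benjamini-Hochberg adjusted p under 0.05 over all genes tested), and zone and interaction tests had the heart as a block. Zones were paired by replicate number, since the study cut each heart into 3 zones. The data do not settle this pairing, since same-numbered zones correlated from -0.356 to 0.587, with a median of 0.0213 for border and remote zones of untreated MI. The same numbers in different treatments are different rats. All 10 members are named in every comparison. From the 4 pathway lists the genes with the highest and lowest log2 fold change past the threshold are named for MI against sham in the infarct zone and for cell sheet against MI in the border and remote zones, and for each member the genes with the highest correlation among those with a mean log2 CPM of at least 1. Some genes that these rules select are not reported here. Cell type markers were summed as CPM over 10 lists. The alternatives were DESeq2 1.42.0, other count filters (none, or at least 10 counts in 6 libraries), library size without TMM factors, all 54 libraries in 1 fit, the replicate number as a block or not, an offset of 1 for the ratios, and leaving out each heart. The edgeR test was first tried on simulated counts in a treatment, a zone and an interaction comparison. DESeq2, the ratio test and the test for distant libraries were not. Promoter sequences are from RefSeq.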

Additional observations from a re-analysis of the deposited data

Results flagged for a closer look

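In 90 groups of 6 libraries tested for a single distant library, 17 were found, and 16 of them were sham replicate 5. The groups share hearts and correlated genes, so these are not separate findings. For Il6, 5 of 6 sham border and 5 of 6 sham remote libraries had 0 counts, so that any count there is flagged. Levels in sham replicate 5 were 23.52, 35.82 and 32.34 CPM for Il1b in the remote, border and infarct zone, with at most 2.92 CPM in the other sham libraries. They were 41.22, 50.89 and 51.05 CPM for Il18, against at most 4.99 CPM, and 112.9, 145.4 and 107.9 CPM for Il1rn, against at most 4.56 CPM. Tnf stood out at 12.33 CPM in the remote and 16.31 CPM in the border zone, and Il6 at 0.1713, 1.196 and 0.6296 CPM, where 0 counts were the rule. In the border zone of this heart Il1r2 was at 1.10 CPM and Il1rl1 at 18.22 CPM. The remaining case was a low value, Il1r1 at 107.6 CPM in the infarct zone of cell sheet replicate 6, where the others lay at 159.3 CPM or more.

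The effect of MI on Il1rl1 differed between the infarct and the remote zone, by 1.3111 on the log2 scale in a test of the difference itself (edgeR, adjusted p = 0.0475). The call was lost in 9 of the 12 fits that left out 1 heart and in the fit without the block for the heart.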

How the results depend on the processing

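Of 881 fold changes of single members recomputed under another tool, filter, scaling or block, 828 kept direction and side of the threshold, 15 fell short of it, 27 passed it and 11 changed direction, and of 1708 with 1 heart left out 1580 did, with 41, 32 and 55. In 2 of those 55 a value was called: Tnf in border zones (adjusted p = 0.0371) and Il18 in remote zones (adjusted p = 0.000134) of untreated MI against sham without sham replicate 5. The members that changed direction ranged as log2 fold changes over these fits for Tnf from -0.4553 to 1.122 (untreated MI against sham, border zone), Il18 from -0.2929 to 1.903 and Il1rn from -0.04943 to 3.548 (untreated MI against sham, remote zone), Il18 from -0.06321 to 0.3494, Il1r1 from -0.07043 to 0.06182, Il1rl1 from -0.005743 to 0.9173 and Tnf from -0.06336 to 0.4214 (cell sheet against untreated MI, infarct zone), Il33 from -0.2969 to 0.5441 (cell sheet against untreated MI, border zone), Il18 from -0.08808 to 2.273, Il1rn from -0.463 to 3.901 and Tnf from -0.8239 to 0.4677 (cell sheet against sham, border zone), Il1b from -1.099 to 1.123, Il18 from -1.695 to 0.7889, Il33 from -0.1802 to 0.07298 and Il1rn from -3.135 to 0.8571 (cell sheet against sham, remote zone). Others were Il1b from -0.4464 to 0.2304, Il1r2 from -0.5716 to 0.139 and Il6 from -0.1561 to 0.3967 (untreated MI hearts, infarct against remote zone), Il33 from -0.7312 to 0.1321 and Il1rl1 from -0.3651 to 0.834 (the cell sheet effect, border against infarct zone), Il1r2 from -0.02282 to 1.164 and Tnf from -0.211 to 0.3181 (the cell sheet effect, border against remote zone), Il11 from -0.1369 to 0.618 (the cell sheet effect, infarct against remote zone), Il33 from -0.02341 to 0.3781 (the MI effect, infarct against remote zone), Il1b from -0.04194 to 1.081 (the MI effect, border against remote zone). The ratio of Il1rn to Il1b in untreated MI against sham remote zones ranged from -0.1509 to 0.3443. With 1 heart left out, members called in untreated MI against sham ranged from 4 to 8 in the infarct, 4 to 9 in the border and 3 to 7 in the remote zone, and in cell sheet against sham from 6 to 9 in the infarct and 4 to 8 in the border zone, each time with the highest count without sham replicate 5. In cell sheet against untreated MI they ranged from 1 to 7 in the remote zone. Between infarct and remote zones of untreated MI they ranged from 0 to 3, with 0 without replicate 4 or 6, 1 without replicate 2 or 5 and 3 without replicate 1. The interaction of the cell sheet effect for infarct against remote zones ranged from 0 to 6 (cell sheet replicate 1), that of the MI effect from 0 to 1, and for border against remote zones from 0 to 1 (MI replicate 5). DESeq2 called 2 members in cell sheet against untreated MI border zones, 2 in untreated MI border against remote zones and 6 in the interaction for infarct against remote zones. With all 54 libraries in 1 fit, 7 were called in untreated MI against sham border zones, 1 in cell sheet against untreated MI border zones and 2 in remote zones. The causes were not tested. The ratio of Il1r2 to Il1r1 ranged from 2.73 to 3.61 in untreated MI against sham border zones and from 2.74 to 3.82 in remote zones, and from -1.98 to -1.11 in cell sheet against untreated MI remote zones, and each passed the threshold in 1 of 12 fits, without untreated MI replicate 6, sham replicate 5 and untreated MI replicate 6.

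Replicate numbers of different treatments belong to different rats. The correlations of such same-numbered libraries ran from -0.806 to 0.67, which does not settle a pairing by itself. With the number as a replicate block, 5 members were called in untreated MI against sham remote zones, beside 29% of all genes, and 0 in cell sheet against untreated MI remote zones, beside 0.013%, so that this 0 holds for nearly all genes. Il1rn was then called in infarct and remote zones (adjusted p = 0.0219 and 0.0408) and Il18 in infarct zones (adjusted p = 0.0464) of untreated MI against sham. Directions also turned with or without a block, between values that were not called, for Tnf in border zones (0.4437) and Il18 in remote zones (1.247) of untreated MI against sham, for Il1b (0.6275) and Il18 (0.08912) in cell sheet against sham remote zones, and in the cell sheet effect for Il1rl1 (-0.01442, border against infarct), Tnf (-0.1304, border against remote) and Il11 (-0.02924, infarct against remote). Without the block for the heart, 2 were called between border and remote zones of untreated MI and 0 in the interaction of the MI effect for infarct against remote zones. Between zones of the same heart the correlations ran from -0.356 to 0.587. Without TMM factors the median log2 fold change over all genes moved by over 0.1 in several comparisons, for instance from -0.02 to 0.24 in untreated MI against sham infarct zones, and higher genes then made up 67.1% rather than 45.5% of those called there, 64.1% rather than 44.2% in border and 68.6% rather than 45.1% in remote zones. In cell sheet against untreated MI the share went from 47.2% to 57.3% in border and from 60.2% to 48.5% in remote zones, in cell sheet against sham from 49.5% to 66.3% in infarct and from 46.8% to 71.2% in border zones, between zones from 50.3% to 63.2% in untreated MI (infarct against remote) and from 50.1% to 64.5% and 51.8% to 68.4% with the cell sheet (infarct and border against remote), and in the MI effect for infarct against remote zones from 47% to 62.5%. Without TMM factors 4 values that were not called changed direction, to 0.1174 for Tnf in border and 0.006686 for Il18 in remote zones of untreated MI against sham, 0.06024 for Il33 in cell sheet against sham remote zones and 0.004176 for Tnf between infarct and remote zones of untreated MI, and Il1r1 was no longer called in cell sheet against untreated MI remote zones (adjusted p = 0.0588). Il6 and Il11 are limited by depth, and 3 counts, the floor used here, are 0.116 to 0.263 CPM.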

Other observations

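Untreated MI border zones were uneven in several members at once. Replicates 1 to 6 had Il1b at 54.3, 270.0, 52.7, 7.15, 8.27 and 4.48 CPM, Il1r2 at 18.3, 80.3, 30.6, 3.52, 4.05 and 2.21 CPM and a neutrophil marker sum of 136.6, 446.4, 228.5, 26.4, 20.2 and 13.9 CPM. The mast cell sum, from 7 genes, was 41.0 to 92.8 CPM in these libraries and 40.1 to 349.6 CPM in cell sheet-treated border zones, with 4 of 7 markers higher by edgeR, beside 8.47% of all genes. The border zone of cell sheet replicate 3, at 40.1 CPM the lowest of its group for this sum, also had the lowest Il33 and Il1rl1 of the 6, at 17.5 and 8.35 CPM. It was the lowest of its group for the macrophage (531.6 CPM), fibroblast (9584 CPM), endothelial, mesothelial and adipocyte sums as well, and the highest for the cardiomyocyte sum (38460 CPM). The endothelial sum was 637.7 to 886.7 CPM in untreated MI and 834.5 to 1234 CPM in cell sheet-treated border zones, with 1 of 5 markers higher, beside the same 8.47% of all genes. The mesothelial sum lay between 44.5 and 628.5 CPM in the latter and the adipocyte sum between 294.3 and 1085 CPM.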
